A study of Mus musculus with 10 samples.

Results

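Isolated varying autosomal probes are single 60-base oligonucleotides whose signal differed widely between 10 mice while the next probe on each side did not. A probe was taken where the highest and the lowest log2 ratio of the 10 animals lay 1.2 or more apart and the range of both neighbours was below 0.9. The interval from 115 to 133 Mb on chromosome 5 was left out. Of 161460 autosomal probes, 937 reached the range, 9 of them lay in the left-out interval, 215 had a varying neighbour, and 713 remained as members, 0.442% of the autosomal probes and a part of 170305 probes in all. The ranges that chose the members are therefore a description and were not tested.

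Liver DNA was compared by array comparative genomic hybridisation in 5 ICSI-derived and 5 naturally born adult mice, with 3 animals labelled male and 2 labelled female in each group. All were progeny of the ZFLacZ transgenic line, which goes back to SJL and C57BL/6 mice, and the labels do not name the promoter of the transgene. The ICSI-derived animals came from testis cells that had been frozen for 14 years: ZFLacZ sperm were injected into oocytes of DBA x C57BL/6 females. The naturally born animals were ZFLacZ progeny that the labels call wild-type controls. DBA ancestry and derivation by injection thus cannot be told apart in a comparison of the groups. The ICSI-derived animals are called I1 to I5 and the naturally born animals N1 to N5 here, by the replicate numbers of the labels. Each animal's DNA carried Cy5. The competing pool, in Cy3, mixed DNA of C57BL/6, SJL and DBA mice evenly, so a log2 ratio above 0 is more signal from the animal than from the pool. Genomic DNA carries no expression markers, so the labelled tissue could not be checked.

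In comparative genomic hybridisation an animal's DNA and a reference compete for the same probe, and the ratio of the dyes follows the number of copies of the probe's sequence. A gain or loss of a long stretch moves many neighbouring probes together. A short insertion or deletion, or base differences under the oligonucleotide between inbred strains, can move a single probe and leave its neighbours in place, and so can a defect of a single spot. Such differences are inherited in blocks, because strain chromosomes recombine at few places per generation.

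The array of N3, an animal labelled male, stood apart on the sex chromosomes. Its mean log2 ratio was -0.033 for chromosome X probes and -0.0072 for chromosome Y probes. The other 5 animals labelled male lay between -0.61 and -0.55 on chromosome X and between 0.75 and 0.82 on chromosome Y. The 4 animals labelled female lay between 0.26 and 0.28 on chromosome X and between -1.57 and -1.42 on chromosome Y. Without this array 697 probes met the rule, 695 of them members. The arrays of I1, I4 and N2 had the largest spread between neighbouring probes, 0.201, 0.208 and 0.173 against 0.140 to 0.151 on the others.

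Over all autosomal probes the range of the 10 animals had a median of 0.326 and a 99th percentile of 1.04. Among the members it had a median of 1.43, quartiles of 1.29 and 1.78 and a maximum of 6.10. A range of 2 or more was reached by 137 members and a range of 3 or more by 41. The members just inside the threshold were chr7:58005937-58005996 at 1.201, chr12:116885475-116885534 at 1.202 and chr2:126015671-126015730 at 1.2023. The probes just outside it were chr8:125525315-125525374 at 1.1997, chr7:146806229-146806287 at 1.1994 and chr6:7967109-7967168 at 1.1991, so the threshold cut a continuous distribution. The largest range of any member's neighbour was 0.896, and the smallest among the neighbours that led to a probe being left out was 0.902. Members lay on all 19 autosomes, from 0.249% of the probes of chromosome 19 and 0.269% of those of chromosome 15 to 0.581% on chromosome 4 and 0.870% on chromosome 17, where 57 of 6548 probes were members.

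The members varied more in the channel of the animals than in that of the pool. The range of the Cy5 signal, centred on each array, had a median of 1.34 among members against 0.297 over all autosomal probes. The range of the Cy3 signal, which comes from the same pool on every array, had a median of 0.350 against 0.230. The Cy5 range exceeded the Cy3 range at 663 of the 713 members. The regions around the members were quiet: the mean of 8 further neighbours, the second to the fifth on each side, had a median range of 0.155 against 0.143 over all autosomal probes, although 91 members, 12.8%, lay above the 95th percentile of all probes, 0.261.

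Most members were dim probes. Their median Cy3 signal stood at the 11.9th percentile of autosomal probes, 485 members lay below the 25th percentile and 100 lay at or above the 50th. On at least 1 array, 139 members were not well above background, out of 445 such autosomal probes in all. Repeated spots of a probe scatter more at low signal: over probes printed 5 times, the median SD of the log2 ratio within an array was 0.122 for the 360 probes below the 25th Cy3 percentile and 0.0708 for the 589 above it, and 0.207 for the 69 below the 2nd. With a background correction by normexp, which adds a constant to both channels and so draws in dim ratios, 607 probes met the rule and 369 of the 713 members were among them. Of the 228 members at or above the 25th percentile 211 were kept, 92.5%, and of the 485 below it 158, 32.6%. Within a member, the values under both corrections had a median Pearson correlation of 0.98 over the 10 animals. A few very low values can carry such a correlation, and the order of the animals was not compared.

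The 8 members with the largest range are shown with all animals, because they set the scale on which an isolated probe can vary. At chr1:101807488-101807547, I3 and I4 had log2 ratios of -4.13 and -4.13, and the other 8 animals ranged from 0.95 in N4 to 1.97 in N2. The Cy5 signal of these 2 arrays was not well above background, so their values are upper limits, and the range of 6.10 became 2.61 with normexp. Nearby members at 101077186, 102171791 and 102198240 also had I3 and I4 among their lower animals, at -0.55 and -0.61, at -0.23 and -0.50, and at -1.34 and -2.23.

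At chr4:135853273-135853332 the animals fell on 3 levels. I1, I4 and N2 were at 1.77, 1.64 and 1.55. N1 and N5 were at 0.67 and 0.44, and the other 5 animals, I2, I3, I5, N3 and N4, lay between -4.17 and -3.19 with a Cy5 signal not well above background. The range of 5.94 became 2.02 with normexp. Both groups were present at the top and at the bottom. The same 3 levels returned at chr4:136607219-136607278, 0.75 Mb away and 1 of only 2 members that were printed as 5 spots. There the top animals were at 0.68, 0.66 and 0.72, N1 and N5 at 0.18 and 0.22, and the other 5 between -0.60 and -0.47. The SD over the 5 spots of an array was between 0.0365 and 0.121, so the levels were farther apart than the spots of an array.

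The other member with 5 spots, chr18:44688130-44688189, fell on separate levels in the means over the spots. I5 was highest at 0.81, I3, I4, N3 and N4 lay between 0.24 and 0.36, and the other 5 animals between -0.46 and -0.27. The spot SD was between 0.036 and 0.255, and the highest spot of N3, at 0.67, lay above the lowest spot of I5, at 0.64.

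At chr6:50004222-50004281, N1 and N5 were at -3.85 and -2.87, while I1 and I3 were the highest, up to 1.62 in I3, and the other 6 animals between -0.16 and 0.85. At chr6:49319953-49320012 the same pairs stood out, with N1 and N5 at -2.27 and -3.24 and I1 and I3 at 1.77 and 1.17, and the other 6 animals between 0.16 and 0.63. These members thus set the same animals apart over 0.68 Mb. At chr15:90962959-90963018, I5 and N4 were at -3.98 and -3.84 and the other 8 animals between 0.03 and 1.37. At chr5:13970037-13970096 the 3 lowest animals were I1, I4 and N4, at -1.79, -2.94 and -1.56, and the highest was I3 at 2.08. At each of these 4 probes the animals at the bottom had a Cy5 signal not well above background, and the ranges of 5.48, 5.01, 5.35 and 5.02 became 2.21, 1.32, 1.69 and 1.58 with normexp.

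**Figure D1:**
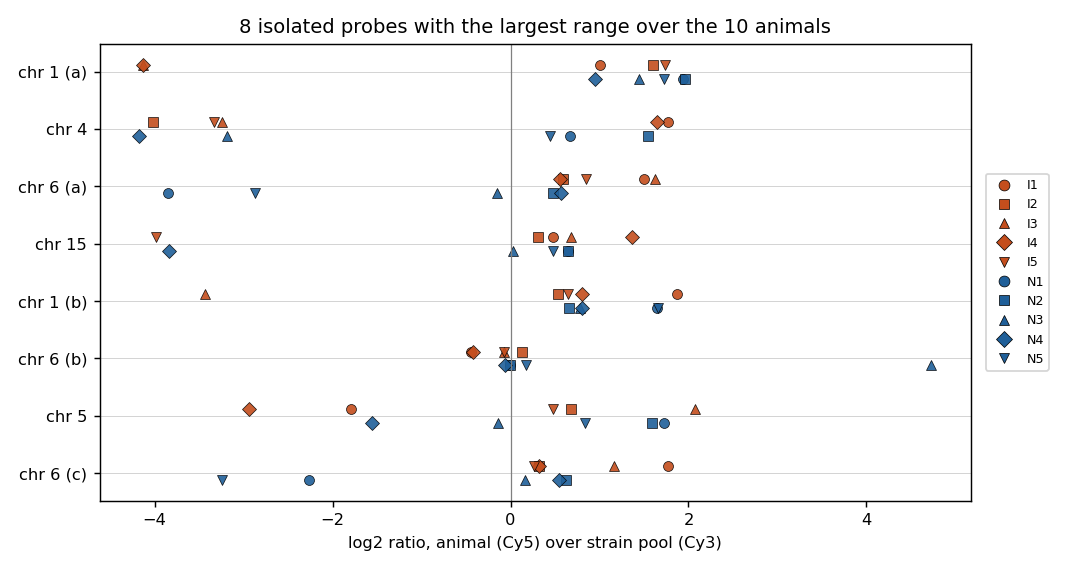
Log2 ratio of each animal at the 8 members with the largest range, 1 line per probe, with ICSI-derived animals in orange and naturally born animals in blue and a symbol per replicate number. Animals of both colours lie on both sides of the widest gap at chromosome 4, at chromosome 15 and at chromosome 5, and chromosome 6 (b) is a single animal at 4.73, measured on a spot marked as an outlier by the scanner software.

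Where 1 animal stood apart by the widest gap, I3 appeared 4 times among the 6 largest gaps and N3 at the other 2. At chr1:14330639-14330698, I3 was at -3.44 against 0.53 to 1.87 in the other 9 animals. At chr3:114514109-114514168 it was at -2.70 against 0.35 to 1.80. With normexp these ranges went from 5.31 to 2.68 and from 4.49 to 1.63. The direction was opposite on chromosome 16, where it was the only animal well above background in Cy5: at chr16:57994653-57994712 it was at 0.73 and the others between -3.81 and -2.66, and at chr16:45066379-45066438 it was at 0.64 and the others between -3.25 and -2.42. The ranges of 4.54 and 3.89 became 0.60 and 1.38 with normexp, the first of them below the threshold. Members between these, at 45500001, 56671860 and 57688882, also had I3 highest, at 0.48, 0.31 and 0.51 against a highest other animal of -0.70, -0.51 and -0.81. The dim member at 56540370 differed, with N4 highest at 0.60 and I3 at 0.04.

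Farther along chromosome 16 the carriers changed. At chr16:75027109-75027168, chr16:78608920-78608978 and chr16:83038703-83038762, I1 was at 0.80, 0.83 and 0.48 and N1 at 0.84, 0.71 and 0.73. The other 8 animals, I3 among them, lay between -4.04 and -2.51 at these 3 probes, with a Cy5 signal not well above background in all 8 at the first and the second. These 3 were picked with their values in view.

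Both lone values of N3 came from spots that the scanner software marked as outliers. At chr6:139150504-139150563 it was at 4.73 against -0.45 to 0.18, and at chr9:100694346-100694405 at 4.61 against -0.28 to 0.21. Without the marked spots the ranges were 0.62 and 0.49, below the threshold. In all, 27 members held a marked spot, and 688 probes met the rule without such spots.

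The 3 members with the largest Cy3 range had a spot far brighter on 1 array than on the others. At chr7:108432372-108432431 the centred log2 Cy3 signal was 7.53 on the array of N3 and between -3.38 and -2.84 on the others, the Cy5 signal moved with it, and the spot was marked. At chr6:79647881-79647940 the Cy3 signal was 6.71 on the array of I2 and between -2.49 and -1.90 on the others, again on a marked spot. Without the marked spots both ranges fell to 0.60 and 0.74. At chr17:27958162-27958221 the Cy3 signal was 7.72 on the array of I5, where the spot was saturated, and between -0.01 and 0.25 on the others. Its log2 ratio of 0.07 there was not extreme, and the range of its log2 ratio came from I3, N1 and N2, at -1.77, -2.01 and -1.84.

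Sorting the 10 animals and dividing them at the widest gap described how the members varied. The smaller side held 1 animal at 257 members, 2 at 143, 3 at 142, 4 at 113 and 5 at 58. The gap had a median of 0.605 and a maximum of 5.08. It was 1.2 or more at 100 members, of which 35 set 1 animal apart and 65 had at least 2 animals on each side. At these 65 split members, spread over 16 chromosomes, the high side had a median level of 0.55 and the low side of -1.86.

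The sides of the split members ran through the groups. Both groups had animals on both sides at 41 of the 65. At 15 the ICSI-derived animals were on both sides and all naturally born animals were high, at 5 the ICSI-derived animals were on both sides and all naturally born animals were low, and at 4 the naturally born animals were on both sides and all ICSI-derived animals were high. The groups were fully apart at none, which is a count and not a test. The split members divided the animals in 38 different ways, and the commonest division occurred at 5 members.

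Low values reached the background of the scanner. A log2 ratio of -1.5 or less occurred at 104 members in 321 values, with 22 to 40 such members per animal, and the Cy5 signal was not well above background in 161 of them. Of 104 values at -2.5 or less, 96 had such a Cy5 signal, while the pool's Cy3 signal was not well above background in 4 of the 321. At the 29 members where at least 1 animal was at -2.5 or less, the 160 values above -1.5 were not spread evenly: 42 fell between 0.5 and 0.7, 71 lay within 0.2 of 0.58, 18 within 0.2 of 1.58 and 5 within 0.2 of -0.42. Near 0, 12 fell between -0.1 and 0.1. Around 1.58 there was no narrow peak, with 8 values from 1.3 to 1.5, 8 from 1.5 to 1.7 and 7 from 1.7 to 1.9. For scale, a sequence carried by 1 of the 3 pooled strains gives 0.58 for an animal with 1 copy and 1.58 for an animal with 2, and a sequence carried by 2 of 3 gives -0.42 and 0.58. A sequence carried by all 3 gives -1 and 0. This is arithmetic on the composition of the pool. Which strains carry these sequences was not tested.

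Members close to each other on a chromosome varied more alike over the animals than distant ones, although the rule took each probe by its own range. Of 694 pairs of consecutive members, the median absolute Pearson correlation over the 10 animals was 0.79 for the 89 pairs under 0.2 Mb apart, 0.82 for 181 pairs at 0.2 to 1 Mb, 0.50 for 279 pairs at 1 to 5 Mb, 0.43 for 137 pairs at 5 to 20 Mb and 0.39 for 8 pairs beyond. By rank the fall with distance was smaller, with median absolute Spearman correlations of 0.58, 0.65, 0.45, 0.39 and 0.40 in the same classes. With both members at or above the 25th Cy3 percentile the medians were 0.93 over 10 pairs, 0.90 over 18, 0.71 over 31 and 0.53 over 13 for the nearest 4 classes. The correlation was 0.9 or more in 131 pairs and -0.9 or less in 35, in which the animals high at a member were low at the next. All pairs share the same 10 arrays, and these are descriptions across 10 animals. Without N3 the medians of the nearest 4 classes were 0.79, 0.83, 0.53 and 0.49.

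**Figure D2:**
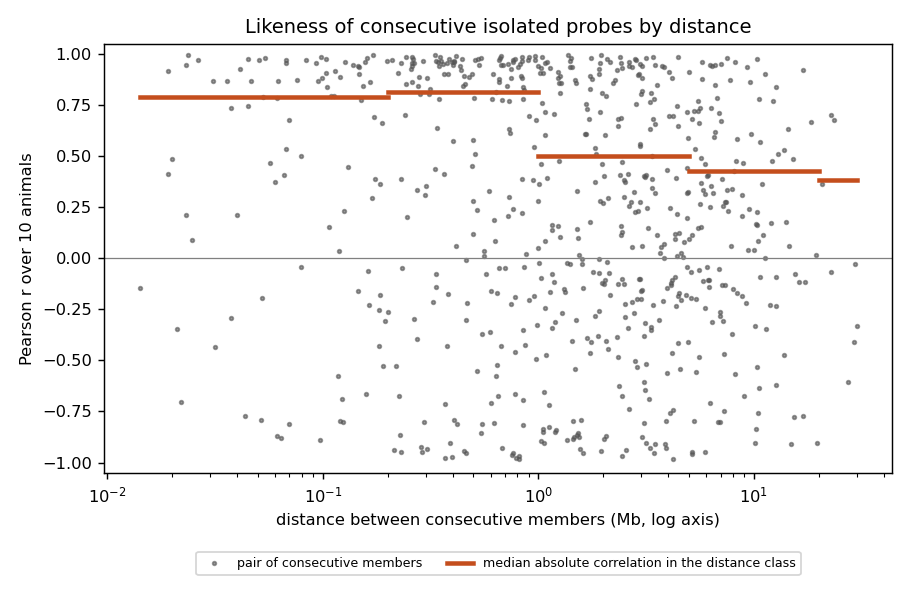
Pearson correlation over the 10 animals for each pair of consecutive members against the distance between them on a log axis, with the median absolute correlation of each distance class as a line. Points gather near 1 and, from 0.2 Mb on, near -1 as well, and the median falls from 0.82 at 0.2 to 1 Mb to 0.50 at 1 to 5 Mb.

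Linking consecutive members less than 5 Mb apart with an absolute correlation of at least 0.95 gave 54 series with 140 members. Of these, 16 series on 10 chromosomes held 3 or more members, 64 in all, and spanned 0.57 to 6.31 Mb with a median of 1.66 Mb. The series with the most members held 6, between 76068888 and 77939832 on chromosome 13. At its strongest probe, chr13:76767333-76767392, I4, N4 and N5 were at -3.98, -3.86 and -3.03, N3 was at -0.46 and the other 6 animals lay between 0.65 and 0.81. At chr13:76505521-76505580 the same 3 animals were between -1.44 and -1.38, N3 was at -0.25 and the others between 0.20 and 0.72. At chr13:76161823-76161882 and chr13:76068888-76068947 the order was the same, with the 3 low animals at -1.30, -2.004 and -1.48 and at -0.26, -0.60 and -0.26, and N3 at -0.91 and 0.31. With normexp the ranges of the first and the third of these probes, 4.79 and 2.40, became 0.97 and 1.03. Another series of 4 members, from 93841523 to 100152243 on the same chromosome, had medians of -1.43, -1.68 and -1.33 in the same 3 animals, -0.38 in N3 and 0.43 to 0.54 in the rest. The 3 animals carrying the low state were all labelled female. I5, the other animal labelled female, was on the high side.

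The series of 5 members from 22611006 to 23698516 on chromosome 5 set I1 and I4 apart. At chr5:22611006-22611065 they were at -0.96 and -1.03, at chr5:22634727-22634786 at -1.15 and -1.19, at chr5:23474255-23474314 at -0.79 and -0.95 and at chr5:23541748-23541807 at -0.67 and -0.84. The other 8 animals formed 2 further levels in the median of the series, with I2, I5, N3 and N4 between 0.26 and 0.48, and I3, N1, N2 and N5 between 0.93 and 1.02. The 3 levels did not overlap.

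The series of 5 members from 129097488 to 135061635 on chromosome 6 held probes of both directions. At chr6:129097488-129097547, I1, I4 and I5 were at -1.91, -1.89 and -2.10, and the other 7 animals between -0.63 and 0.04. At chr6:133694326-133694385 they were at -0.95, -0.99 and -0.88, and the others between 0.04 and 0.50. At chr6:129908813-129908872 the same 3 animals were the highest, at 0.47, 0.49 and 0.60 against -0.61 to 0.08, and at chr6:132881296-132881355 at 0.56, 0.90 and 0.60 against -0.38 to -0.01. N3 was the nearest of the 7 to the 3 at all 4 probes.

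Of the other series, several were carried by animals of both groups. The 4 members from 27006822 to 29525182 on chromosome 12 had medians of -1.39 and -1.56 in I1 and I5 and of -1.64 and -1.31 in N2 and N5, against 0.49 to 0.61 in the other 6 animals. A series of 3 members on chromosome 4 set I1, I4, N2 and N5 apart, in opposite directions. At chr4:142902533-142902592 these animals were the highest, between 1.47 and 1.72 against 0.33 to 0.75. At chr4:144257932-144257991 they were the lowest, between -1.74 and -1.39 against -0.38 to -0.088, and so they were at chr4:143298296-143298355. A series of 3 members on chromosome 11 set I2, I3, I4 and N5 apart. These were the lowest at chr11:85268201-85268260, between -0.65 and -0.22 against 0.35 to 0.59. At chr11:87700974-87701033 they were the highest, between -0.32 and -0.19 against -1.56 to -1.38, and likewise at chr11:89647055-89647114.

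Chromosome 8 held contrasting series. The 4 members from 16016111 to 16581395 were at -1.74 in I3 and between -1.99 and -1.72 in N1 to N4, against 0.28 to 0.55 in the other 5 animals, and the member at 22623250 divided them the same way. The 4 members from 93807378 to 95561159 were high only in I2 and I4, at 0.48 and 0.53, against -1.02 to -0.65 in the other 8.

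**Figure D3:**
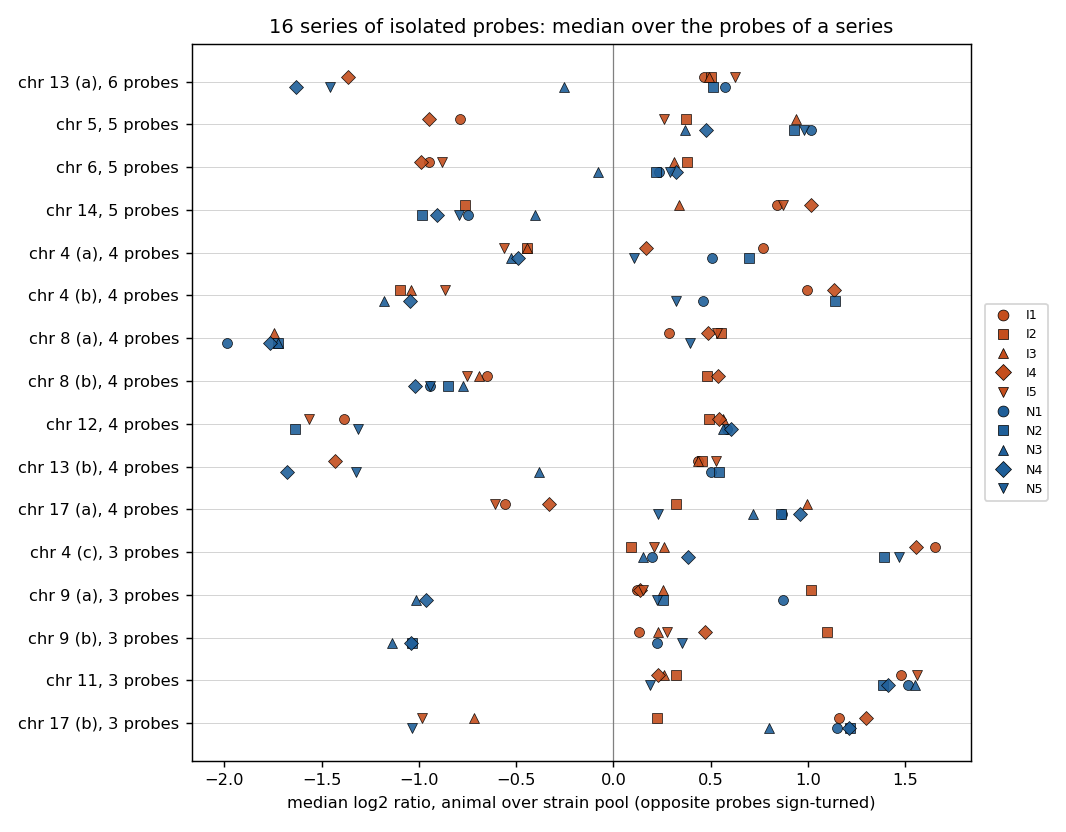
Median log2 ratio over the probes of each of the 16 series of 3 or more members, 1 line per series, with ICSI-derived animals in orange and naturally born animals in blue. Probes that ran opposite to the first probe of their series, present in 3 series, were turned in sign, and N3 (blue upright triangle) lies between the clusters on chromosome 13 (a and b) and just left of the higher cluster on chromosome 6.

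Animal N3 lay between the sides more often than any other. For each animal, members were taken where the other 9 were split by a gap of 1.2 or more with at least 2 on each side, and the animal was called between where it fell in the inner range from 0.2 to 0.8 of that gap. N3 was between at 25 of 80 such members, 31.3%. The other 9 animals were between at 0 to 5 of 54 to 67 members, 0% to 7.58%. Among members at or above the 25th Cy3 percentile it was 8 of 24, 33.3%, against 0 to 2 for each of the others, and with a gap of 0.9 it was 45 of 146, 30.8%, against 0.847% to 5.26%.

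The intermediate values were not spread evenly over the chromosomes. N3 was between at 10 of 10 such members of chromosome 13 and at 4 of 11 of chromosome 17. It was at 0 of 6 on chromosome 4, 0 of 6 on chromosome 8, 0 of 5 on chromosome 16 and 0 of 4 on chromosome 12. In all, 9 chromosomes held at least 1 such member and 8 held none. The 10 members of chromosome 13 belonged to series of members that varied alike, so they are not independent. They are also part of the 25 members at which N3 was between. On a linear scale its place at the 25 members was taken from the median of the low side to the median of the high side. It had a median of 0.427 of that way, with quartiles of 0.380 and 0.503. On the sex chromosomes the same array lay between the animals labelled male and female. What the intermediate levels come from was not tested.

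**Figure D4:**
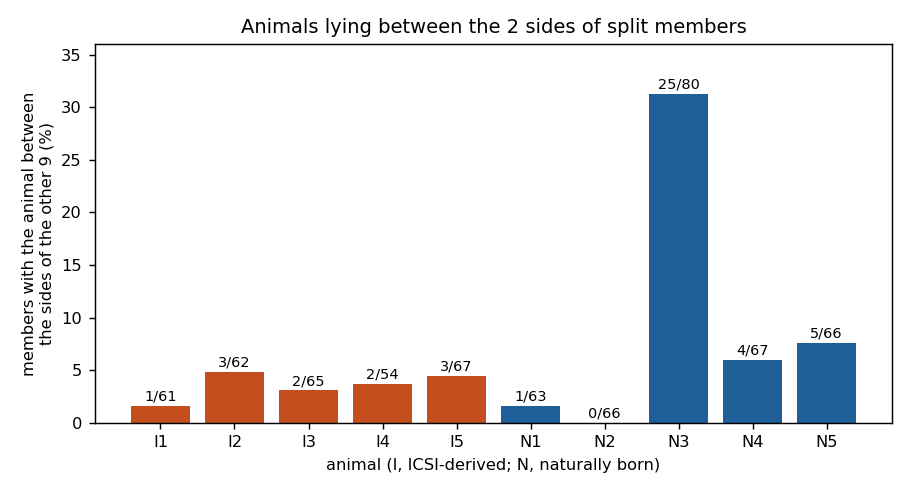
Percentage of split members at which an animal lay between the 2 sides formed by the other 9, per animal, with the counts above the bars and bars starting at 0. N3 reached 31.3% (25 of 80) and no other animal exceeded 7.58% (5 of 66).

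At 257 members the widest gap set 1 animal apart, low at 117 and high at 140. N4 was the lone high animal at 56 members on 17 chromosomes and N1 at 26 on 13, while the other 8 animals were so at 2 to 15. The members of N4 were dim, with a median Cy3 percentile of 2.15 and 47 of 56 below the 25th. Their gaps had a median of 0.58, against 0.605 over all members. Neither was particular to N4. The lone high members of the other animals had median Cy3 percentiles from 0.065 in N3 to 31.4 in I2. Their median gaps went from 0.44 in N5 to 0.96 in N1. At the lone high members of N4 its centred log2 Cy5 signal exceeded the median of the other 9 animals by a median of 0.82, and its Cy3 signal differed from theirs by -0.15. Whether low signal accounts for them was not tested, and 9 remained at or above the 25th percentile.

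The lone high members of N1 had wider gaps, with a median of 0.96. Of these, 4 lay within 4.25 Mb of each other on chromosome 3, at 137828702, 137931626, 141598244 and 142073987, where this animal was at 0.40, 0.43, 0.37 and 0.52 and the highest of the other 9 at -0.67, -0.97, -0.98 and -0.51. A dim member between them, at 140417182, did not share the pattern, with N1 at -0.25 among values from -0.62 to 0.76. Lone low members were most frequent in I4, at 21, followed by I5 and N1 at 17 each, I3 at 16 and N5 at 15. I4 also had the noisiest array, and without the 3 noisiest arrays 509 probes met the rule, 498 of them members.

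**Figure D5:**
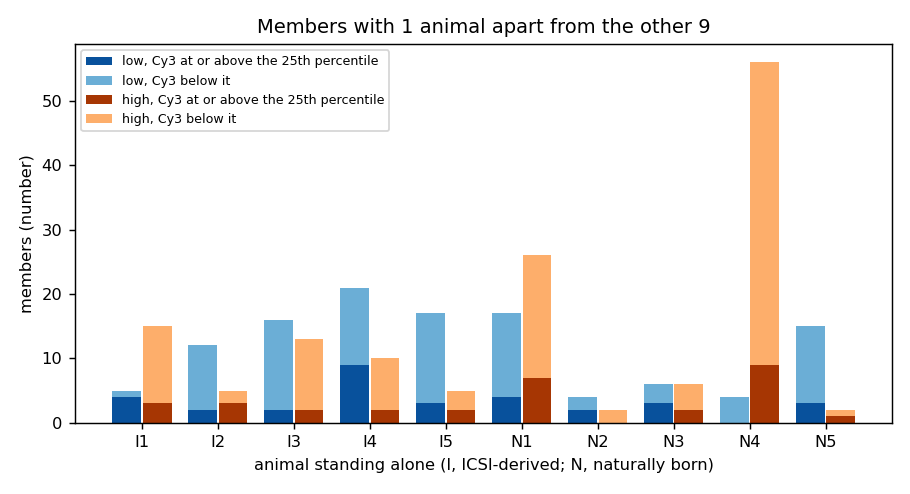
Number of members at which a single animal stood apart from the other 9, for each animal, low in blue and high in orange, with the part at or above the 25th Cy3 percentile in the darker shade. N4 has 56 high members, 9 of them in the darker shade.

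ICSI-derived and naturally born animals were compared to ask whether long storage and injection changed the genome. With limma 0 of the 713 members were called between the groups at an adjusted p below 0.05, against 32 of 161460 autosomal probes, 0.0198%. At an unadjusted p below 0.05 there were 164 members, against 5274 probes, 3.27%. The range that chose the members contains any group difference, so nothing is read from this larger share. The absolute difference of the group means had a median of 0.30 among members and 0.041 over all autosomal probes, and the signed difference, ICSI-derived minus naturally born, a median of -0.016. In the Cy5 signal 1 member was called, chr11:48934182-48934241, higher in ICSI-derived animals by 0.71 ± 0.097 (SE, limma adjusted p = 0.0375), against 34 probes, 0.0211%. This probe was among the dimmest of all, at Cy3 percentile 0.03, and was not tested in the fit limited to probes well above background. Its call was kept without I3. Without any 1 of the other 9 animals it was lost, with limma adjusted p from 0.0676 to 0.191. In the Cy3 signal no member was called, against 3 probes, 0.00186%.

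The values of the groups did not overlap at 5 members, 0.701%, against 824 autosomal probes, 0.51%. At chr17:17531553-17531612 the smallest adjusted p of all members was reached, 0.183 with limma, for a difference of 1.61 ± 0.26 (SE). I1, I2, I4 and I5 were at 0.17, 0.31, 0.26 and 0.09, while I3, at -1.45, was close to the naturally born animals, which lay between -1.98 and -1.49. With slide as a block the limma adjusted p was 0.030, and it was the 1 member called in that fit, against 29 of 161460 autosomal probes. The others were chr8:93807378-93807437, chr9:40472804-40472863 and chr14:50583371-50583430, with differences of 0.67, 0.76 and 0.85, and chr9:21529874-21529933, lower in ICSI-derived animals by 0.80 (log2 difference -0.80). Their limma adjusted p was between 0.376 and 1.00. The nearest animals of the groups lay close together. On chromosome 8 these were I5 at -0.66 and N2 at -0.76, and on chromosome 14 I3 at -0.55 and N4 at -0.59. At chr9:40472804-40472863 they were I1 at 0.31 and N5 at 0.28. At chr9:21529874-21529933 they were I3 at -0.11 and N5 at -0.03.

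The groups came apart at more members when I3 was left out. Without it the groups did not overlap at 27 members, 3.79%, against 1.2% of autosomal probes, and limma called 9 members, against 77 autosomal probes, 0.0477%. These 27 included 9 on chromosome 17 and 5 on chromosome 9. At chr5:32650087-32650146 the other 4 ICSI-derived animals were between 0.35 and 0.58 and I3 was at -1.67, with the naturally born animals between -1.90 and -1.31. At chr17:35407675-35407727 the 4 were between 0.34 and 0.47, I3 was at -1.21 and the naturally born animals lay between -1.32 and -0.67. At chr17:15913291-15913350 the direction was opposite, with the 4 between -0.82 and -0.43, I3 at 0.34 and the naturally born animals between 0.28 and 0.42. These probes were taken from the 27, so the place of I3 outside the other 4 follows from how they were picked.

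Without I2 the groups did not overlap at 15 members, 2.10%, against 1.23% of autosomal probes, and limma called 7 members, against 39 autosomal probes, 0.0242%. Among the 15 was chr6:139150504-139150563, where the value of N3 came from a marked spot, and 7 lay between 94446923 and 96641735 on chromosome 14. All members called by limma except chr6:47600366-47600425 lay in that stretch too. They belonged to series of members that varied alike, so they are not independent calls. At chr14:94446923-94446982, I1, I3, I4 and I5 were at 1.02, 0.44, 1.10 and 1.19, I2 was at -1.27 and the naturally born animals lay between -1.10 and -0.36. At chr14:95908119-95908178 the same animals were at 0.84, 0.38, 1.02, 0.87 and -0.43, and the naturally born animals between -0.71 and 0.08. The probes of these paragraphs were named after their values were seen. Leaving out any of the other 8 animals gave 6 to 17 members without overlap, 0.842% to 2.38%, against 0.928% to 1.14% of autosomal probes. There were 17 without N1, more than without I2, and 15 without N5, as many as without I2.

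Within the groups, a range of 0.9 or more occurred in both groups at 304 members, only in ICSI-derived animals at 237, only in naturally born animals at 160 and in neither at 12. The median range was 1.24 over the 5 ICSI-derived animals and 1.10 over the 5 naturally born ones, against 0.266 and 0.227 over all autosomal probes, so the ICSI-derived arrays also had the larger spread outside the members. With 0.6 as the limit, 513 members varied in both groups, 119 only in ICSI-derived animals and 81 only in naturally born ones. Without N1 the count for naturally born animals only was 105.

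Labelled sex separated 2 members, out of 6 autosomal probes called by limma, 0.00372%. Neither probe was chosen by sex, but the range includes any difference between the sexes. At chr17:21648042-21648101 the animals labelled male other than N3 were between 1.31 and 1.40, and the animals labelled female between -0.31 and 0.09. The difference, female minus male, was -1.42 ± 0.11 (SE, limma adjusted p = 0.0028). At chr10:29986819-29986878 the same males were between 0.46 and 0.87 and the females between -0.33 and -0.26, with a difference of -0.94 ± 0.10 (SE, limma adjusted p = 0.028). N3 lay between the sexes at both, at 0.84 and 0.17, and without it the differences were -1.51 and -1.02, with limma adjusted p of 6.7e-05 and 0.0016. The call on chromosome 10 was lost without any of 8 other animals, with limma adjusted p from 0.0795 to 0.175. The call on chromosome 17 was kept whichever animal was left out. Without I5 limma called 13 members for sex, against 20 autosomal probes, 0.0124%. At an unadjusted p below 0.05 there were 88 members, against 4705 probes, 2.91%.

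Between the 3 slides limma called 0 members and 0 of 161460 autosomal probes, 0%. At an unadjusted p below 0.05 there were 195 members, against 9073 probes, 5.62%. Without N3 limma called 13 members, against 21 probes, 0.013%, and without I3 it called 7 members, against 8 probes. The calls without I3 included chr6:139150504-139150563 and chr9:100694346-100694405, where the value of N3 came from marked spots. Without N5 or I5, slide 3 held a single array, so a slide difference could not be told from that array. Slide 1 held animals labelled male only and slide 3 animals labelled female only, so the comparisons by slide and by sex overlap in part. The range that chose the members contains any slide difference. Subtracting each slide's mean left 570 probes under the rule, of which 518 were members.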

How the data were processed

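Deposited scanner files of 10 two-channel Agilent arrays, 1 animal each, were used. Per the file headers, Feature Extraction 10.7.3.1 had subtracted background from the processed intensity of each channel and scaled the dyes linearly. In the deposited value table the log10 ratios equalled those of the scanner files. Partek 6.5 appears in the submitters' processing notes, with no stated use. Positions are as in the files, of which 6 have headers that name mm9 and 4 name no build. Probe sequences and an annotation of that build were not used here, so no genes are named.

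Control spots were left out and spots of a probe were averaged. Log2 ratios of Cy5 over Cy3 were centred on each array's autosomal median, with no loess. Each group was compared over all autosomal probes by limma's two-sided moderated test (version 3.58.1, R 4.3.3), with terms for group and sex and p-values adjusted after Benjamini and Hochberg, and the members were read from that fit. This fit was tested on simulated data with known differences. The 3 slides held 4, 4 and 2 arrays, with both groups on each, and the first and the third held animals of 1 labelled sex. Normexp (offset 50) used median intensities. The number of arrays limits the precision.

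The members, lists and alternatives were chosen with earlier results of these data known. Named probes were the 8 with the largest range, those called for group or sex, the 6 widest gaps with 1 animal apart, up to 4 probes of each of the 3 series with the most members (ties by position), 3 on either side of the range threshold, and the 3 with the largest Cy3 range. Others were named after their values were seen. Same-numbered animals of the 2 groups did not deviate together, with correlations over autosomal probes from -0.28 to 0.15, so the numbers were not treated as pairs. Python 3.11.15, numpy 2.4.6 and pandas 2.3.3 were used.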

Additional observations from a re-analysis of the deposited data

Results flagged for a closer look

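In sets of 5 animals at the named probes, a value was singled out where its gap to the nearest other animal of its group exceeded 0.71 of the group's range. Of 64 sets examined, 14 values were singled out, where chance alone gives about 1 in 20, and the probes had been chosen for their range. At chr15:90962959-90963018 these were ICSI-derived replicate 5 at -3.98 and naturally born replicate 4 at -3.84. Animal I3 was apart at chr1:14330639-14330698 with -3.44, at chr3:114514109-114514168 with -2.70, and on chromosome 16 with 0.73 and 0.64. On the chromosome 13 series, I4 was apart from the other ICSI-derived animals at 4 probes, with -0.26, -1.30, -1.44 and -3.98, while N4 and N5 lay at similar levels in the other group.

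The array of N3 was apart at 4 named probes. The values 4.73, 4.61 and -1.68 came from spots marked as outliers, and the value 0.077 at chr6:129908813-129908872 did not. Among 8 sets of counts of members per animal, 1 value was singled out in the same way: N3 lay between the sides of the other animals at 25 members, against 0 to 5 for the others.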

How the results depend on the processing

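Over the alternatives run, the sex differences of the 2 called members kept their direction. The other results were not checked for a reversal. Counts other than those below stayed within 1.5 times their value. The sex call on chromosome 17 was kept, and that on chromosome 10 was not always kept. Ranges of named probes other than 17 moved by less than the SD of the probe over the animals. This does not say whether they stayed above 1.2. The likeness of consecutive members moved by less than the SD of the absolute correlation over all pairs. The percentage of members with N3 between stayed within its Wilson confidence interval. The 17 ranges moved with normexp or without marked spots, as given with the probes, and that of chr7:58005937-58005996 was 0.70 with normexp. The number of members was 1487 with a range of 1.0, 313 with 1.5 and 228 among probes at or above the 25th Cy3 percentile, an alternative chosen after seeing the data. It was 623 to 697 with 1 animal left out. Members called between the groups numbered 1 with slide as a block, of 29 autosomal probes called. They numbered 22 within slide 1 and 74 within slide 2, fits of 4 arrays in which 37 and 226 autosomal probes were called. With 1 animal left out they numbered 0 to 9 (9 without I3, of 77 autosomal probes). Members called for sex numbered 1 to 13 with 1 animal left out (13 without I5, of 20 autosomal probes) and for slide 0 to 13 (13 without N3, of 21). In the Cy5 signal they numbered 0 among probes well above background and 0 to 13 with 1 animal left out (13 without I3, of 96), and in the Cy3 signal 0 to 1 (1 without N5, of 26). The member called in the Cy5 signal was not among the probes well above background. With a limit of 0.6, 119 members varied in ICSI-derived animals only, 81 in naturally born animals only and 513 in both. With 1 animal left out the counts at 0.9 were 186 to 312, 105 to 219 and 229 to 286. Among brighter probes the lone high members were 9 for N4 and 7 for N1. With the replicate block, used as if the numbers were paired, 0 members and 25 autosomal probes were called. The causes of these changes were not tested. Low signal limits the deepest values: Cy5 was not well above background in 161 of 321 values at -1.5 or less.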
